A study of Rattus norvegicus with 16 samples.

Results

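Rat hepatoma H35 cells, an established liver tumor line, were transfected with the same shRNA3 plasmid against Pdrg1 and then handled along 2 routes, and it is these preparations that are compared here. The stable clone 3-44 (4 arrays) is a single clone that received G418 at 1.8 mg/ml for 2 weeks and then at 4 mg/ml for 2 weeks more. The enriched pool shRNA3T (4 arrays) is a mixture of transfected cells taken after the first 2 weeks at 1.8 mg/ml. Both groups therefore carry the same silencing sequence and differ in clonality and in the strength and length of the G418 selection, which cannot be told apart. These 8 arrays were chosen by their titles from the 16 of the series, and every gene spot was used. The other 8 arrays are those of the stable clone CN-10 (4 arrays, negative control plasmid) and the stable clone 4-18 (4 arrays, a different shRNA against Pdrg1, shRNA4); their levels are given beside the 2 shRNA3 groups as a reference. The 4-18 arrays were scanned on another day than the other 3 groups and were dimmer, with a 75th percentile of 1614 to 1946 intensity units and 53.1 to 64.1% of spots well above background. All cells were grown in serum-containing medium. The titles number the 4 arrays of a group as replicates, and the study describes them as biological replicates. The 3-44 arrays come from a single clone and the shRNA3T arrays from an enriched pool. The p-values therefore rest on the spread between arrays and do not extend to clones and pools in general. Each group occupied 1 slide of its own, so that slide and group cannot be told apart.

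PDRG1 is a small prefoldin-like protein that takes part in the R2TP/prefoldin-like chaperone complex and that binds the methionine adenosyltransferases, the enzymes that make S-adenosylmethionine. A pool of transfected cells averages over many integration events and over cells that silence the gene to different extents, whereas a clone descends from 1 cell. H35 cells keep part of the hepatocyte program, including plasma protein synthesis, while dividing in culture.

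The arrays were of similar brightness. The 75th percentile of the mean signal lay between 2328 and 3692 intensity units on the 3-44 arrays and between 2594 and 3641 on the shRNA3T arrays, and 64.7 to 74.3% of gene spots were well above background. The replicate 1 array stood apart in both groups: it correlated with the other arrays of 3-44 at 0.989 to 0.991, and with those of shRNA3T at 0.993, across probes, whereas the best pairs reached 0.998 in each group. Values without them are given where a call or a direction turned on them. Over 17166 probes well above background on all 8 arrays, the median SD between replicates was 0.20 log2 units in 3-44 and 0.16 in shRNA3T, and it was 0.098 and 0.075 without the replicate 1 arrays. The liver identity of the cells held in both groups. Of 32 hepatocyte markers, 29 were well above background on all 8 arrays, and albumin (Alb) stood at a log2 level of 17.14 in 3-44 and 17.30 in shRNA3T. Of the markers of other cell types, 7 of 12 macrophage and leukocyte, 6 of 14 fibroblast and stellate cell, 4 of 12 bile duct and progenitor cell and 3 of 9 endothelial genes were also well above background on all 8 arrays. Some were bright, as Cd24 at 14.32 in 3-44 and 14.19 in shRNA3T and Cd14 at 10.88 and 9.82, and others lay at the lower end of the scale: Ptprc, the pan-leukocyte phosphatase, stood at 6.14 and 6.26, and Pecam1, an endothelial adhesion molecule, at 6.22 and 6.34.

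Pdrg1, the target of the shRNA, could not be separated between the clone and the pool. Its probe lies at chr3:143353382-143353441 (minus strand, rn4). The normalized log2 intensity was 11.89, 12.86, 12.90 and 12.95 on the 4 arrays of 3-44 and 12.39, 12.90, 12.97 and 12.90 on those of shRNA3T. The 2 groups overlapped, and the low value of each belonged to its replicate 1 array. The difference (3-44 minus shRNA3T) was -0.14 ± 0.34 (SE, n = 4 per group, limma adjusted p = 0.874, exact two-sided permutation p = 0.629, where 0.0286 is the smallest that 4 against 4 arrays allow). Without both replicate 1 arrays it was -0.02. CN-10 stood at 13.64 ± 0.22 and 4-18 at 12.87 ± 0.87 (SD, n = 4 each). The comparison is thus one of cells with the same silencing sequence, in which a Pdrg1 difference smaller than the spread of these arrays would not be seen.

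Differences elsewhere were numerous. A gene was called when its 2 groups differed at least 2-fold with an adjusted p (limma, Benjamini-Hochberg over 30367 probes) below 0.05. By this rule 580 genes differed, 259 being higher and 321 lower in 3-44. Counted over probes, 2.00% were called, 0.925% higher and 1.07% lower. When each of 26269 gene names was represented by its brightest probe, as for the lists below, 2.12% were called, 0.944% higher and 1.18% lower, and the median log2 difference was 0.01. The split between directions depended on scaling: with the deposited table left unscaled, 106 genes were higher and 234 lower. For 21.8% of probes the 4 arrays of a group lay wholly beyond the 4 of the other, so that absence of overlap alone was common.

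**Figure D1:**
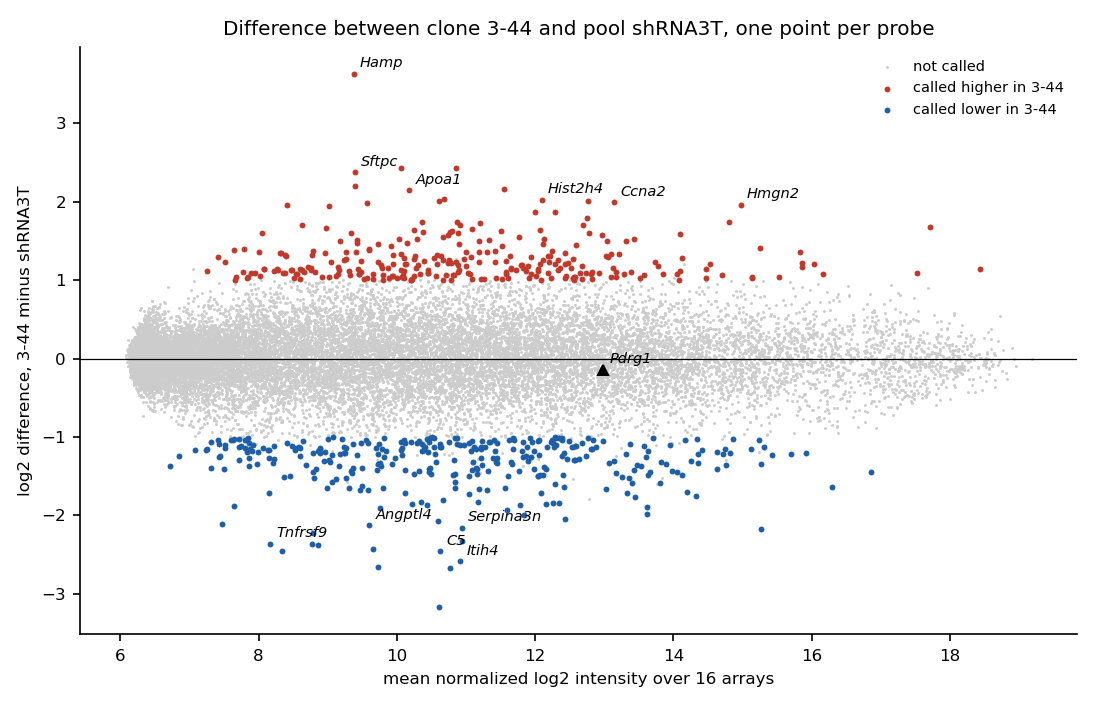
Log2 difference between 3-44 and shRNA3T (vertical axis) against the mean normalized log2 intensity over the 16 arrays (horizontal axis), one point per probe. Red and blue points are the 281 and 326 probes called higher and lower in 3-44, and Pdrg1 (triangle) lies near 0 at -0.14.

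Genes of DNA replication and mitosis were often called, and on the list of such genes every called member was higher in the clone. Of 37 measured members of the cell cycle and DNA replication list, 20 were called higher in 3-44 (background 0.944%) and 0 lower; at any fold, limma adjusted p was below 0.05 for 23 members that were higher (background 5.36%) and 0 that were lower (background 5.57%), and at an unadjusted p below 0.05 the counts were 29 and 0. The median difference was 1.04, against 0.01 over all gene names. In bulk RNA, a smaller share of dividing cells and less RNA per dividing cell cannot be told apart. Without the replicate 1 arrays of both groups 15 members were called, and without that of 3-44 alone 14. With the deposited table left unscaled 11 were called, and with median scaling 15.

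Ccna2, the cyclin that partners CDK2 and CDK1 through S phase and into mitosis, had the largest difference of the list. Its probe (chr2:123062781-123062840, minus strand, rn4) read 13.97, 13.82, 13.56 and 13.66 on the 3-44 arrays and 11.45, 12.13, 11.83 and 11.63 on the shRNA3T arrays. The groups were far apart, with 3.98-fold more signal in the clone (log2 difference 1.99 ± 0.14, SE, n = 4, limma adjusted p = 6.18e-07), and a second Ccna2 probe gave 1.79. Mcm5, a subunit of the replicative helicase, read 11.79, 11.27, 11.33 and 11.51 in 3-44 and 10.15, 9.17, 9.88 and 9.87 in shRNA3T. Tyms, which makes thymidylate for DNA synthesis, read 11.58, 11.28, 11.19 and 11.02 in 3-44 and 8.49, 10.02, 9.87 and 9.74 in shRNA3T. Both sets were separated on every array, by 1.70 ± 0.18 for Mcm5 (limma adjusted p = 2.24e-05) and by 1.74 ± 0.26 for Tyms (limma adjusted p = 4.98e-04). Rrm1, the large subunit of ribonucleotide reductase, differed by 1.47 ± 0.17 (limma adjusted p = 6.56e-05).

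Among mitotic regulators, cyclin B1 (Ccnb1) differed by 1.46, the transcription factor Foxm1 by 1.38, the kinase Plk1 by 1.18 and Cdk1 by 1.04 (0.99 without the replicate 1 array of 3-44 and 0.96 without replicate 4 of shRNA3T); Top2a, the topoisomerase that untangles replicated chromosomes, differed by 1.44. Other members of the list, chosen after their values were seen, lay nearer to 0. The D-type cyclins Ccnd1, Ccnd2 and Ccnd3, which act early in G1, stood at 0.28, -0.05 and -0.22. Among the inhibitors, Cdkn1b, Cdkn2a and Cdkn2b stood at 0.00, -0.08 and -0.02. None of these was called. Families collected by gene name after these values had been seen overlap the list in part: it holds 7 of the 22 minichromosome maintenance and origin genes, 5 of the 29 polymerase and replication factor genes, 2 of the 24 kinetochore genes and 0 of the 11 mitotic kinesins. Over the members outside the list the called genes were 1, 5, 11 and 3, all higher, and the medians 0.66, 0.74, 1.00 and 0.78. Of all 22 minichromosome maintenance and origin genes, 5 were called higher and 0 lower (median 0.78), with Orc1, the largest origin recognition subunit, at 1.65. Of 29 DNA polymerase and replication factor genes 10 were called higher (median 0.90), with Chtf18, a clamp loader subunit, at 1.74 ± 0.20 (limma adjusted p = 5.10e-05); the count was 6 without the replicate 4 array of shRNA3T and 6 without both replicate 1 arrays. Of 24 kinetochore and centromere genes 12 were called higher (median 1.04), with Nuf2, part of the microtubule-binding NDC80 complex, at 1.73. Of 11 mitotic kinesins 3 were called higher (median 0.78). With the deposited table unscaled, 4 of the polymerase and replication factor genes and 2 of the kinetochore genes were called. Ube2c, the ubiquitin-conjugating enzyme of the anaphase-promoting complex, read 13.22, 12.85, 12.70 and 12.77 in 3-44 and 11.15, 11.22, 10.95 and 10.75 in shRNA3T, a 3.64-fold difference (limma adjusted p = 5.14e-04).

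**Figure D2:**
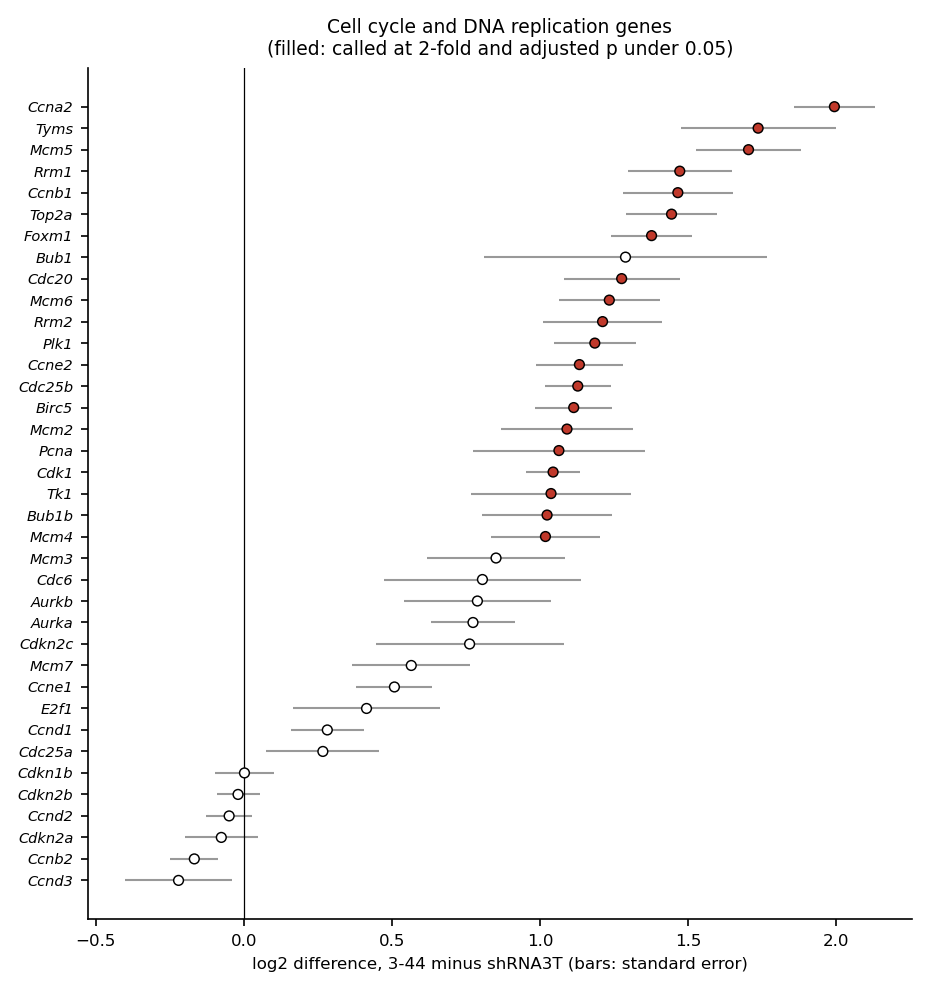
Log2 difference between 3-44 and shRNA3T for the 37 measured cell cycle and DNA replication genes, with standard errors from the fit (n = 4 arrays per group). The 20 filled points are the called genes, between 1.02 and 1.99, while the D-type cyclins and the inhibitors Cdkn1b, Cdkn2a and Cdkn2b lie around 0.

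The control clone and 4-18 gave these levels a reference. The mean level of the 37 members ranged from 11.74 to 11.94 on the 3-44 arrays, from 11.80 to 11.90 on the CN-10 arrays, from 11.01 to 11.25 on the 4-18 arrays and from 10.79 to 11.06 on the shRNA3T arrays. Clone 3-44 overlapped the control clone and did not overlap the pool. In the same fit, 0 of 37 members were called between 3-44 and CN-10 (background 0.685% higher and 0.788% lower), with a median of -0.02, and in shRNA3T against CN-10 17 were called lower (background 1.19%) and 0 higher (background 1.20%), with a median of -0.95. These comparisons share arrays with the main one. In 4-18 against shRNA3T 5 members were called higher (background 1.86%) and 1 lower (background 2.70%).

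Histone genes, whose transcripts accumulate in S phase, contributed several of the largest differences. Hist1h4b read 13.18, 12.53, 12.39 and 13.01 in 3-44 and 10.54, 10.59, 10.69 and 10.65 in shRNA3T. The pool values were nearly identical to each other and the clone values lay well above them, by 2.16 ± 0.20 (limma adjusted p = 8.05e-06). Hist2h4 differed by 2.03 ± 0.21 and Hist2h3c by 1.94 ± 0.17 (limma adjusted p = 2.37e-05 and 4.41e-06), and the linker histone Hist1h1d by 1.33. Over the 31 genes of the Hist name, a family collected after the values had been seen, 6 were called higher and 0 lower, and the median was 0.27. Histone copies are nearly identical in sequence and their probes may read each other, and a second Hist2h4 probe gave a smaller difference, 0.96. A second Hist1h4b probe was above background on 0 arrays. The mean level of the family lay between 9.49 and 9.84 in 3-44, 9.41 and 9.56 in CN-10, 8.93 and 8.97 in 4-18, and 9.09 and 9.17 in shRNA3T. Hmgn2, a nucleosome-binding protein encoded by a gene with many processed copies in mammalian genomes, read 15.46, 15.92, 15.72 and 15.81 in 3-44 and 14.00, 13.84, 13.66 and 13.56 in shRNA3T, a 3.90-fold difference (limma adjusted p = 2.71e-07).

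The 250 bases before the annotated starts of Mcm5 and Tyms are shown because both genes were higher in the clone and carry E2F-type letters, the site class known for S-phase genes. They come from RefSeq on GRCr8, at chr19:13488563-13488812 (plus strand) and chr9:120776084-120776333 (minus strand). Capitals mark, on either strand, the E2F-type letters TTCCCGC and TTGGCGC, the CCAAT box, and 3 further sets that were searched in every sequence shown here: TTTGAA of the cell cycle homology region, GGCGCC of a SMAD element and TTCNNNGAA of a STAT element.
Mcm5: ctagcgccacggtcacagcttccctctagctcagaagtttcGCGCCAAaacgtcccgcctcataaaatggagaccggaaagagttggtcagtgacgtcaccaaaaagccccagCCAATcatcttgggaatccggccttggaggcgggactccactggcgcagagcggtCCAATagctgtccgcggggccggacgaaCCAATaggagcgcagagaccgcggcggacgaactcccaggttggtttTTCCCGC
Tyms: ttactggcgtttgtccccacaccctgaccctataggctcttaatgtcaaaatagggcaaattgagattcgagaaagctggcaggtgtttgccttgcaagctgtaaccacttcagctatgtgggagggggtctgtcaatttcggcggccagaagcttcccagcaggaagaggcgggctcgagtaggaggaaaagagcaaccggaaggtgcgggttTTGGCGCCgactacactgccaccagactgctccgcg
In Mcm5 the E2F-type letters began 209 and 7 bases before the start and CCAAT 137, 82 and 54 bases before it; in Tyms TTGGCGC began 36 bases before the start and overlapped GGCGCC, 34 bases before it. Of the 20 called members, 15 had an entry among 27457 promoters, and 11 of these 15 held CCAAT, 4 held TTGGCGC, 2 held TTCCCGC and 5 held TTTGAA, the core of the cell cycle homology region. Of 12 members with an entry that were not called, 6 held CCAAT, 2 TTGGCGC, 1 TTCCCGC and 2 TTTGAA. Over all promoters the shares were 34.3% for CCAAT, 1.9% for TTGGCGC, 3.58% for TTCCCGC and 16% for TTTGAA. A match is a description of letters and not of a bound site.

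Hamp showed the largest difference among genes with a symbol. It encodes hepcidin, the liver hormone that lowers iron export by binding ferroportin, and its transcription is driven by BMP and SMAD signals and by inflammation. Its probe (chr1:85978236-85978295, minus strand, rn4; 10 spots per array) read 10.69, 10.67, 10.24 and 10.85 in 3-44 and 7.0, 7.03, 6.96 and 6.92 in shRNA3T. All pool arrays were close to the floor of the scale, although well above background, and the difference was 12.4-fold (log2 3.63 ± 0.13, limma adjusted p = 1.58e-09). With the processed signal and 75th percentile scaling the log2 difference was 5.17. CN-10 stood at 11.10 ± 0.26 and 4-18 at 8.81 ± 0.12 (SD, n = 4). Id1, a direct BMP target that blocks helix-loop-helix transcription factors, read 11.06, 11.52, 11.36 and 11.60 in 3-44 and 9.84, 9.60, 10.01 and 9.66 in shRNA3T, with no overlap (1.61 ± 0.16, limma adjusted p = 1.46e-05). Id1 stood at 12.56 ± 0.06 in CN-10 and 9.84 ± 0.36 in 4-18. Smad6, the inhibitory SMAD of the same pathway, differed by 0.69 ± 0.15, short of 2-fold (limma adjusted p = 0.00655). Of the 22 TGF-beta, BMP and YAP targets these 2 genes were the called members, both higher, and the list median was 0.07.

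The 250 bases before the start of Hamp (chr1:95300272-95300521, minus strand, RefSeq, GRCr8) are shown because this gene had the largest difference. Capitals mark the same sets of letters. GGCGCC, the letters of a GC-rich SMAD element, began 129 bases before the start, and 9.24% of all promoters hold them. They overlapped TTGGCGC at 131 bases, TTCCCGC began 155 bases before the start, and TTCTTGGAA, which matches the STAT-type letters TTCNNNGAA, began 117 bases before it.
Hamp: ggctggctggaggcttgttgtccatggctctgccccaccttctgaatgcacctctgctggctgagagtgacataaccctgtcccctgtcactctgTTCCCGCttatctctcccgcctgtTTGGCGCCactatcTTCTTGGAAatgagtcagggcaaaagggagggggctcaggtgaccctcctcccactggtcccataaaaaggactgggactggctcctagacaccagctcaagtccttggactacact

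The largest difference in the other direction among named genes was that of Itih4, followed by C5. Itih4, a heavy chain of the inter-alpha-trypsin inhibitor family and an acute-phase protein, read 11.53, 13.66, 12.24 and 10.76 in 3-44 and 14.47, 14.05, 14.92 and 15.08 in shRNA3T. The clone varied more than the pool, yet its highest array stayed below the lowest of the pool, and the difference was -2.58 ± 0.45 (limma adjusted p = 0.00162). Serpina3n, a serine protease inhibitor induced in inflammation, read 11.26, 12.44, 11.91 and 11.40 in 3-44 and 13.51, 13.20, 14.28 and 14.64 in shRNA3T (-2.15 ± 0.38, limma adjusted p = 0.00177). For both genes replicate 2 was the highest of 3-44 and the lowest of shRNA3T, and replicate 4 was the highest of shRNA3T. The lowest array of 3-44 was replicate 4 for Itih4 and replicate 1 for Serpina3n. Chdh, given below, had the same extreme arrays as Itih4, so that this order was not particular to the pair. Itih4 and Serpina3n were lower in the other clones, Itih4 at 9.35 ± 0.43 in CN-10 and 7.65 ± 0.20 in 4-18, Serpina3n at 9.22 ± 0.36 and 8.89 ± 0.72.

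C5, the complement component that nucleates the membrane attack complex, was read by 10 spots per array. It read 8.56, 9.01, 8.79 and 8.71 in 3-44 and 11.12, 11.14, 11.15 and 11.50 in shRNA3T, 5.50-fold lower in the clone (-2.46 ± 0.12, limma adjusted p = 2.77e-08). Unlike Itih4, C5 stood highest in 4-18, at 12.33 ± 0.18, and at 10.19 ± 0.07 in CN-10. Kng1l1, a kininogen and cysteine protease inhibitor, read 8.41, 9.50, 8.77 and 8.17 in 3-44 and 10.61, 10.68, 11.07 and 11.38 in shRNA3T (-2.22 ± 0.26, limma adjusted p = 5.55e-05). Asgr1, the hepatocyte asialoglycoprotein receptor that clears plasma glycoproteins, stood at 9.46 to 9.60 in 3-44 and 11.16 to 11.65 in shRNA3T (-1.91 ± 0.16, limma adjusted p = 3.12e-06). Kininogens and serpins have close relatives in the rat genome, and the share of signal from each could not be separated.

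Few other genes of these classes were called. Of 34 complement and coagulation genes measured, a list assembled after the values had been seen, 2 were called lower, C5 and Kng1l1, and 0 higher, with a median of 0.02. Of 24 inflammation and acute-phase genes, 2 were called lower, Serpina3n and Lbp (the lipopolysaccharide-binding protein, -1.02 ± 0.24, limma adjusted p = 0.0115), and 1 higher, Hamp (list median -0.01). Lbp depended on the replicate 1 array of 3-44, which read 9.82 against 11.04 to 11.13 on the others, and without that array the difference was -0.70 and not called; without replicate 3 or 4 of shRNA3T it was -0.97 and -0.96. Some called members of the same gene family lay near each other and differed in opposite directions. On chromosome 16, Itih4 (chr16:6334720-6334779) and Itih3 (chr16:6341256-6341918) were lower in 3-44, Itih3 by -1.01 ± 0.20 (limma adjusted p = 0.00418), and Itih1 (chr16:6364526-6364585) was higher, by 1.06 ± 0.10 (limma adjusted p = 8.95e-06). Itih3 lost its call without the replicate 4 array of 3-44 (-0.90) or of shRNA3T (-0.91), and Itih1 without the replicate 1 array of 3-44 (0.94). On chromosome 6, Serpina3n was lower whereas Serpina4 (kallistatin) read 12.05 to 12.50 in 3-44 and 10.40 to 10.74 in shRNA3T, higher by 1.65 ± 0.13 (limma adjusted p = 3.12e-06), and Serpina11 was higher by 1.00, within 2-fold without the replicate 1 array of 3-44 (0.93) or of shRNA3T (0.97). Of 13 serpin A genes these were the called members, 2 higher and 1 lower, and the other 10 were not called (median -0.13).

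The 250 bases before the starts of Itih4 (chr16:6086735-6086984, plus strand) and Serpina3n (chr6:129088142-129088391, plus strand) are shown (RefSeq, GRCr8) because both were among the genes much lower in the clone. Capitals mark the same sets of letters, of which TTCNNNGAA are those of a STAT-type element, held by 7.52% of all promoters.
Itih4: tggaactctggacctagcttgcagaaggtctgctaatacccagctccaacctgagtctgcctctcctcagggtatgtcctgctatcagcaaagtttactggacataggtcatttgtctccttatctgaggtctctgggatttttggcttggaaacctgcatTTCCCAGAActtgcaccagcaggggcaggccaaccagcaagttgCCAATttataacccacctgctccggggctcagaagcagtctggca
Serpina3n: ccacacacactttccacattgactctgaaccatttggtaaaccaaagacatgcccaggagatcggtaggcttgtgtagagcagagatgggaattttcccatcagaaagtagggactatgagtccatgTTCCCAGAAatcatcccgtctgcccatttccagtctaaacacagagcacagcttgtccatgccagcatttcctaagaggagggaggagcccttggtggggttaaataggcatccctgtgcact
Both held the same 9 letters, TTCCCAGAA, beginning 89 bases before the start of Itih4 and 123 bases before that of Serpina3n. Itih4 also held CCAAT, 45 bases before the start. STAT-type letters stood in Hamp too, which was higher in the clone.

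**Figure D3:**
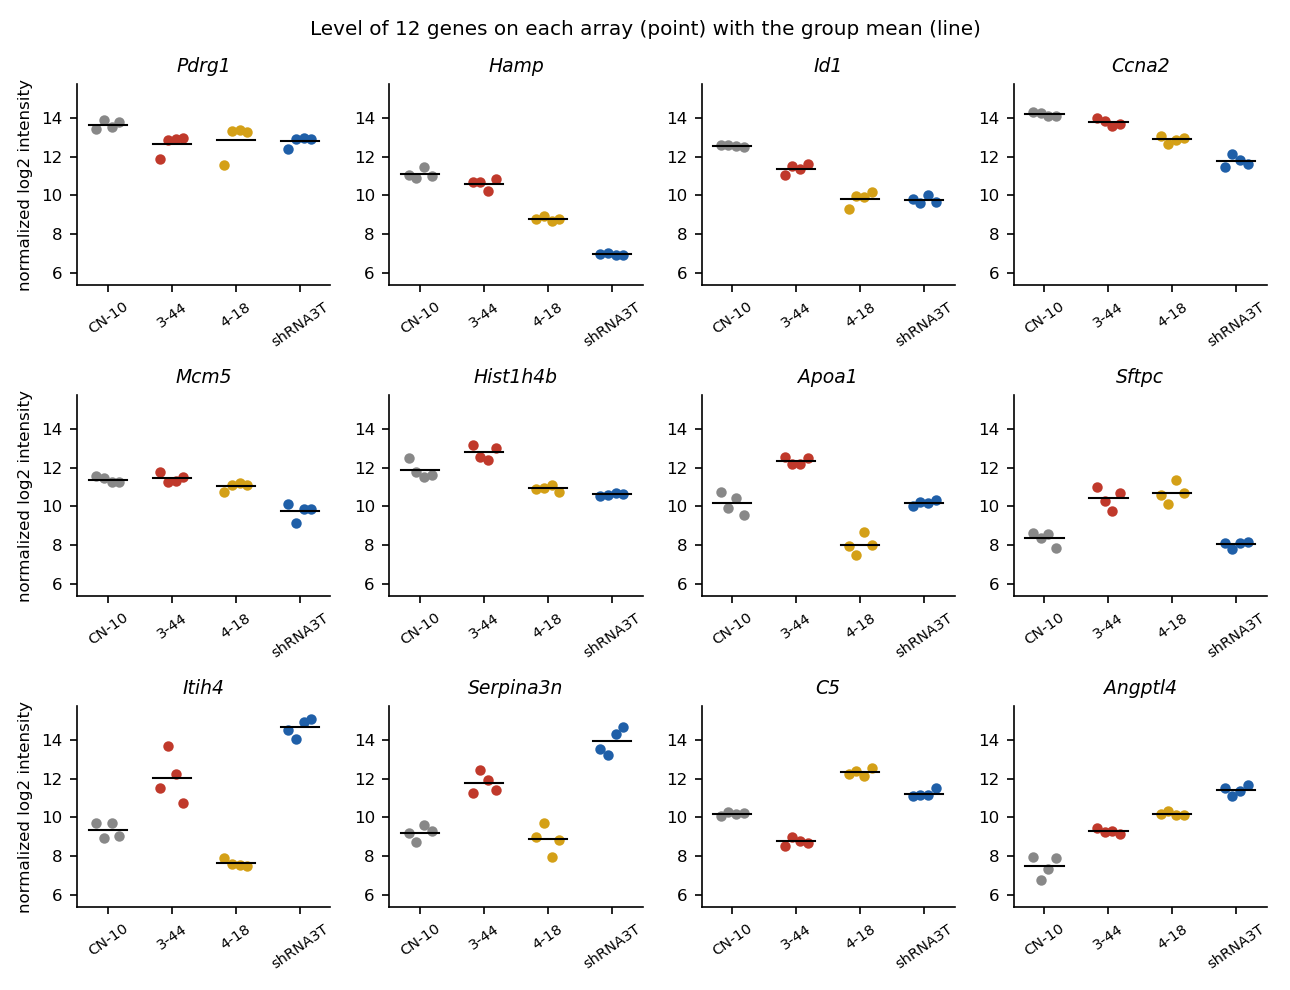
Normalized log2 intensity of 12 genes on each of the 16 arrays (points, in replicate order from left to right) with the group mean (line, n = 4). Hamp, Ccna2, Mcm5 and Hist1h4b have their lowest means in shRNA3T, whereas Itih4, Serpina3n and Angptl4 are highest in shRNA3T.

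Some of the lipid-handling genes regulated by PPAR receptors were lower in the clone. Angptl4, an inhibitor of lipoprotein lipase, read 9.46, 9.27, 9.31 and 9.15 in 3-44 and 11.53, 11.11, 11.35 and 11.67 in shRNA3T, a 4.35-fold difference without overlap (-2.12 ± 0.21, limma adjusted p = 1.25e-05). Of 28 PPAR target genes measured, a list assembled after the values had been seen, 6 were called lower (background 1.18%) and 0 higher (background 0.944%), and the median was -0.39. At any fold, limma adjusted p was below 0.05 for 12 that were lower (background 5.57%) and 3 that were higher (background 5.36%). With 75th percentile scaling of the processed signal 10 were called lower. Besides Angptl4 the 6 called members were Cidea, a lipid droplet protein (-1.67 ± 0.14, limma adjusted p = 7.00e-06), the fatty acid hydroxylase Cyp4a1 (-1.39 ± 0.24, limma adjusted p = 0.00173), the pantetheinase Vnn1 (-1.34), the gluconeogenic enzyme Pck1 (-1.29 ± 0.22, limma adjusted p = 0.00136) and the fatty acid transporter Cd36 (-1.03, but -0.94 without the replicate 4 array of 3-44 and -0.93 without replicate 1 of shRNA3T). Dimmer probes of Cidea and Cd36 gave -0.78 and -0.66 and were not called. The mean level of the list lay between 9.14 and 9.31 in CN-10, 9.39 and 9.44 in 4-18, 9.66 and 9.77 in 3-44, and 10.16 and 10.26 in shRNA3T, with no overlap between any of the 4 groups. Fatty acid oxidation and ketogenesis genes as a whole showed 1 called member of 30, Cyp4a1, with a median of -0.12. In this list limma adjusted p at any fold was below 0.05 for 5 that were lower (background 5.57%) and 0 that were higher (background 5.36%). The 4 arrays of 3-44 had mean list levels of 10.90 to 11.06, below those of shRNA3T (11.18 to 11.26). Fabp7, a fatty acid-binding protein typical of neural cells, was above background on all 4 shRNA3T arrays and on 0 of the 4 of 3-44, so that it was at least 4.18-fold higher in the pool (measured means 6.29 and 8.41, limma adjusted p = 1.07e-05). This bound holds for the normexp-corrected values; with no background correction the measured log2 difference was -1.69, and with the processed signal and 75th percentile scaling -5.75. 4-18 stood at 8.95 ± 0.40 and CN-10 at 6.22 ± 0.06.

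Single enzymes of xenobiotic and choline metabolism were among the largest differences. Sult2al1, a bile acid and steroid sulfotransferase, read 10.84, 10.53, 10.63 and 10.07 in 3-44 and 12.20, 12.998, 12.92 and 13.27 in shRNA3T (-2.33 ± 0.32, limma adjusted p = 2.30e-04), and was the called gene among 13 sulfotransferases. Chdh, the mitochondrial choline dehydrogenase that supplies betaine, read 7.36, 7.90, 7.40 and 6.88 in 3-44 and 9.59, 9.47, 9.92 and 10.36 in shRNA3T (-2.45 ± 0.20, limma adjusted p = 3.67e-06). Of 76 cytochrome P450 genes, a family collected after the values had been seen, 7 were called lower (background 1.18%) and 2 higher (background 0.944%). Among the lower ones were Cyp2f4 (-1.42), Cyp2b2 (-1.25 ± 0.32, limma adjusted p = 0.0222) and Cyp3a9 (-1.16 ± 0.17, limma adjusted p = 3.23e-04). The higher ones were Cyp4f40 (1.56) and Cyp3a18 (1.36), and the family median was -0.02. The P450 counts were 11 lower and 5 higher with 75th percentile scaling of the processed signal, and 2 lower and 1 higher with the deposited table unscaled. Cyp2b2 lost its call without the replicate 1 array of 3-44 (-0.93) or without replicate 2, 3 or 4 of shRNA3T (-1.11 to -1.21), and its other probe read 0.59. Of 28 genes of drug metabolism and transport 2 were called, both lower (median -0.17).

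Among the hepatocyte markers, 1 of 32 was called higher and 2 lower, with a median of -0.04. Apoa1, the main protein of high-density lipoprotein, read 12.57, 12.16, 12.17 and 12.47 in 3-44 and 10.02, 10.23, 10.20 and 10.32 in shRNA3T (2.15 ± 0.25, limma adjusted p = 4.89e-05). Here the pool lay beside CN-10, at 10.16 ± 0.52, and the clone stood above every other group, 4-18 being at 8.04 ± 0.48. Pck1 was lower, as given above, and so was Cps1, which starts the urea cycle (-1.01 ± 0.15, limma adjusted p = 4.44e-04). Cps1 sat at the 2-fold limit and fell inside it without the replicate 1 array of either group or without replicate 3 of shRNA3T (-0.89 to -0.999).

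Several further genes with large differences belong to no list. Sftpc, a surfactant protein characteristic of lung epithelium, read 11.02, 10.30, 9.78 and 10.69 in 3-44 and 8.13, 7.84, 8.10 and 8.19 in shRNA3T (2.38 ± 0.27, limma adjusted p = 4.48e-05); it was as high in 4-18 (10.69 ± 0.51) and low in CN-10 (8.37 ± 0.35). Dapk2, a calcium/calmodulin-dependent death-associated kinase, stood at 10.32 to 10.85 in 3-44 and 8.25 to 8.78 in shRNA3T (2.20 ± 0.14, limma adjusted p = 3.16e-07). Pla2g1b, a secreted phospholipase A2, stood at 13.56 to 14.15 and 11.56 to 11.90 (2.01 ± 0.14, limma adjusted p = 6.47e-07). In the opposite direction, Tnfrsf9, a costimulatory receptor of the TNF family, stood at 6.58 to 7.04 in 3-44 and 9.10 to 9.27 in shRNA3T (-2.36 ± 0.14, limma adjusted p = 2.71e-07), with 4-18 at 9.97 ± 0.32 and CN-10 at 6.70 ± 0.12. Ext1, a heparan sulfate polymerase, stood at 8.92 to 10.62 and 11.52 to 11.87 (-2.07 ± 0.44, limma adjusted p = 0.00663), and missed the threshold without both replicate 1 arrays (-1.80, limma adjusted p = 0.0507). Prap1, an epithelial lipid-binding secreted protein, differed by -1.89 ± 0.16 and Il17re, a receptor subunit for interleukin-17C, by -1.83 ± 0.14 (limma adjusted p = 3.73e-06 and 1.65e-06).

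Among genes tied to the silenced protein, few were called. Mean list levels of PDRG1 and its partners were 13.20 to 13.31 on the 3-44 arrays and 13.06 to 13.15 on the shRNA3T arrays. Those of the methionine cycle list were 9.83 to 9.88 and 9.61 to 9.80. In both lists the groups did not overlap, which was also so for other lists, among them the lysosomal, TGF-beta target and drug metabolism genes. It was not so for the hepatocyte markers or the interferon response. By limma 0 of 11 measured genes of the list of PDRG1 and its partners, Pdrg1 included, were called (median 0.14), and at any fold limma adjusted p was below 0.05 for 2 that were higher and 1 that was lower (background 5.36% and 5.57%); Polr2e, a polymerase subunit of the same complex and the brightest of the list, differed by 0.28 ± 0.12 (limma adjusted p = 0.176). Mat1a, the liver methionine adenosyltransferase, differed by -0.31 ± 0.34 and Mat2a, its counterpart in dividing cells, by 0.23 ± 0.13 (limma adjusted p = 0.670 and 0.348). Without the replicate 1 array of 3-44 Mat1a was 0.05, and without both replicate 1 arrays Mat2a was -0.03. One Mat1a spot was left out on the replicate 1 array of shRNA3T as an outlier. Of 25 genes of the methionine cycle and methylation, 1 was called higher, Uhrf1, which brings DNA methyltransferase 1 to replicated DNA (1.70 ± 0.17, limma adjusted p = 1.49e-05), and 1 lower, Mat2b, the regulatory subunit of MAT II (-1.26 ± 0.28, limma adjusted p = 0.0111, 3 arrays of 3-44). The Mat2b call rests on 1 of 2 probes, the other reading 0.01, and it was lost without the replicate 1 array of 3-44 (-1.04, limma adjusted p = 0.0529).

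Stress and immune lists held few called genes, and their counts at any fold with limma adjusted p below 0.05 are given against the 5.36% of gene names that were higher and the 5.57% that were lower. The interferon response gave 2 higher of 31 (median 0.06; 6 higher and 4 lower at any fold), the immunoproteasome subunit Psmb8 (1.05 ± 0.10, limma adjusted p = 7.00e-06) and the chemokine Cxcl10 (1.04 ± 0.14, limma adjusted p = 2.44e-04), both within 2-fold without the replicate 1 array of 3-44 (0.96 and 0.92). Cxcl10 was also within it without the replicate 2 array of 3-44 (0.99) or of shRNA3T (0.96). NRF2 and glutathione genes gave 1 higher of 29 (median 0.23), with 7 higher and 1 lower at any fold by adjusted p, the called gene being the glutathione peroxidase Gpx2 (1.10 ± 0.22, limma adjusted p = 0.00430), again within 2-fold without that array (0.99) or without replicate 2 of shRNA3T (0.96). Mean list levels were 12.91 to 13.14 on the 3-44 arrays, above those of shRNA3T (12.69 to 12.76). The p53 targets gave 1 lower of 20 (median -0.05; 0 higher and 1 lower at any fold), Zmat3 (-1.03 ± 0.14, limma adjusted p = 2.38e-04), whose other probe read 0.14 and which was -0.90 without the replicate 4 array of 3-44 and -0.98 without replicate 3 of shRNA3T. Lysosomal genes gave 2 lower of 26 (median -0.15; 1 higher and 5 lower at any fold), the protease Ctsd (-1.15 ± 0.22, limma adjusted p = 0.00324) and the membrane protein Lamp2 (-1.01 ± 0.29, limma adjusted p = 0.0346). With the processed signal in place of the background-corrected mean signal Ctsd was -0.33 and not called. Lamp2 was not called without any single array of either group other than replicate 3 of 3-44, and was -0.72 without replicate 1 of 3-44.

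By limma no member was called among 28 genes of the hypoxia response (median -0.24), 28 of the integrated stress and unfolded protein response (0.14), 24 immediate early genes (0.01), 31 of cholesterol and fatty acid synthesis (-0.02), 39 of adhesion, matrix and junctions (0.00) or 18 imprinted genes (0.00). At 2-fold and an unadjusted p below 0.05 the counts in these lists were 0 higher and 0 lower, other than 1 lower in the stress response. At any fold with limma adjusted p below 0.05, the hypoxia list had 1 higher and 4 lower, the stress response 4 and 0, immediate early genes 1 and 3, lipid synthesis 3 and 3, adhesion 3 and 3, and imprinted genes 0 and 1. Their brightest members were Eno1 (-0.06), Phgdh (0.37), Dusp6 (0.19), Sc4mol (0.19), Krt18 (0.53) and Gnas (-0.04), all with limma adjusted p of 0.203 or more. Without the replicate 1 array of 3-44 Eno1 was 0.03 and Phgdh 0.49, and without that of shRNA3T Krt18 was 0.44. Among markers of other cell types, 0 of 12 bile duct and progenitor genes, 0 of 14 fibroblast and stellate cell genes and 0 of 9 endothelial genes were called, with Cd24 at 0.12, Col1a1 at -0.32 and Vwf at 0.14 as their brightest members. Dimmer Vwf probes gave -0.55 and -0.36 (limma adjusted p = 0.00243 and 0.0217), short of 2-fold. Of 12 macrophage and leukocyte markers 1 was called, Cd14, a lipopolysaccharide co-receptor that hepatocytes also make (1.06 ± 0.16, limma adjusted p = 5.65e-04); without the replicate 1 array of 3-44 it was 0.93. The mean level of these 12 markers was 7.46 to 7.60 in 3-44 and 7.15 to 7.34 in shRNA3T, with Ptprc at the floor of the scale in both.

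**Figure D4:**
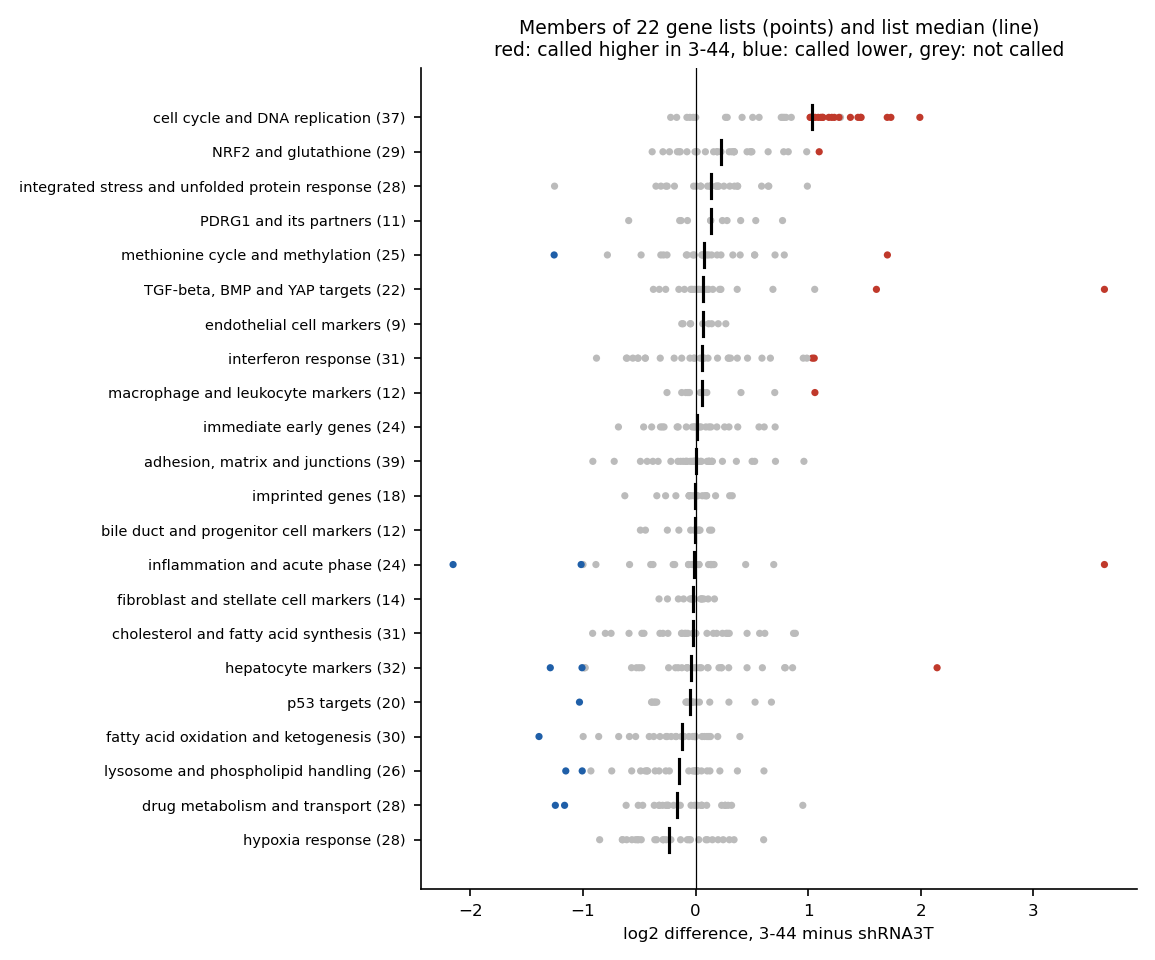
Log2 difference between 3-44 and shRNA3T for the measured members of 22 gene lists (points; number of members in parentheses) and the list median (line). Cell cycle and DNA replication stands out with a median of 1.04, the other medians lying between -0.24 and 0.23.

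**Figure D5:**
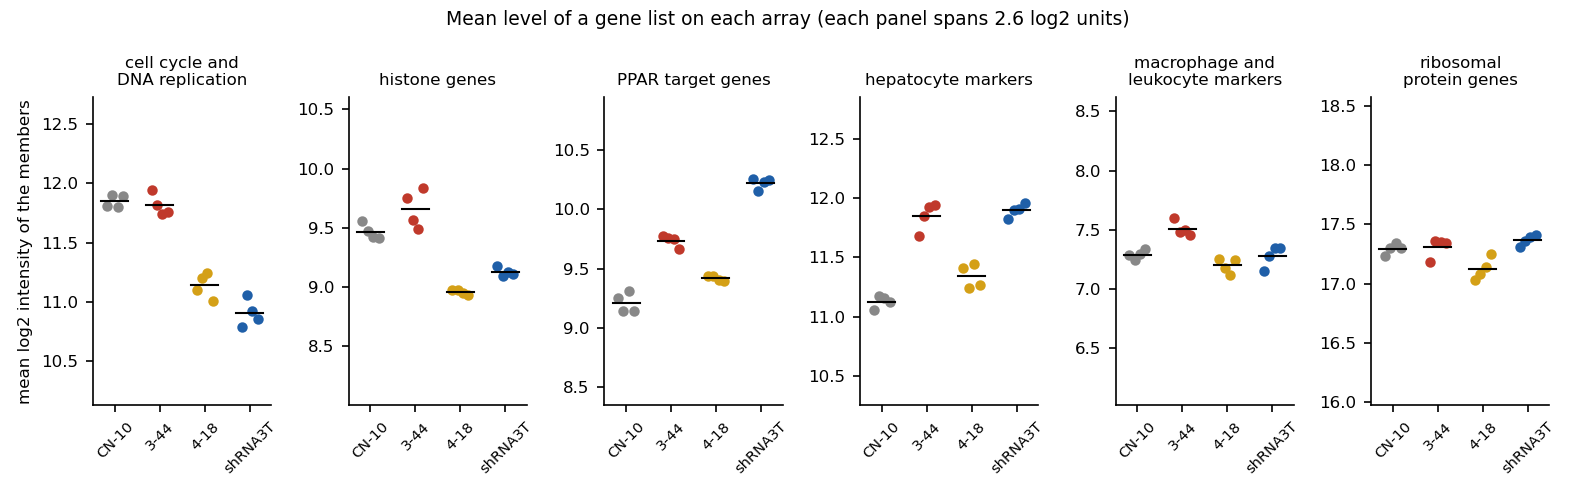
Mean normalized log2 intensity of 6 gene lists on each array (points) with the group mean (line, n = 4). Cell cycle genes were at 11.74 to 11.94 in 3-44 and 10.79 to 11.06 in shRNA3T, while ribosomal protein genes overlapped between these groups, at 17.18 to 17.36 and 17.31 to 17.41.

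Called genes were spread over the genome and no chromosome shifted as a whole. Over probes well above background in both groups, of which 3.50% were called, chromosome medians ran from -0.05 on chromosome 3 to 0.08 on chromosome 15. The share of called probes was highest on chromosomes 16 (6.47%), 6 (5.83%) and 17 (5.13%) and lowest on chromosome 11 (1.62%). In 13783 windows of 25 neighbouring genes, the highest median was 0.50, at chr17:48768394-50429536 (rn4), where 23 of 25 genes were above 0; this window holds 8 histone genes by name. Of its genes 6 were called higher, 1 of them with a histone name (Hist1h4b) and 5 without a gene symbol. The lowest median was -0.41, at chr3:41062207-48862985, where 7 of 25 genes were above 0 and 1 was called lower. In that window, CN-10 and 4-18 differed from the pool by medians of 0.03 and 0.08, so that 3-44 was the group that stood apart, whereas in the histone window CN-10 differed from the pool by 0.40 and 4-18 by -0.04.

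Among probes well above background in both groups, those with neither a gene symbol nor a description were more often lower than higher in the clone. Of these 2125 probes, 5.08% were called lower and 1.13% higher, and of 11735 probes with a symbol (ribosomal proteins and mitochondrial genome apart) 1.11% were lower and 1.71% higher. The 2995 other probes that have a description and no symbol were nearly balanced, at 2.27% lower and 1.8% higher. Of 162 probes without a symbol that are described as ribosomal protein sequences, 8.02% were lower and 0% higher (median -0.28), while 0 of 136 probes of named ribosomal protein genes were called (median -0.09). Sequences of this kind exist in many copies, so that a probe may read several transcripts. Among 13 probes of the mitochondrial genome 2 were lower and 0 higher (median -0.39).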

How the data were processed

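RNA of 4 groups was labelled with Cy3 and hybridised to one-color Agilent rat arrays, 4 per group, and clone 3-44 was compared directly with the enriched pool shRNA3T. Per the file headers, the deposited intensity values are spot mean, median, background and processed signals from Feature Extraction 10.7.3.1, with probe positions on rn4. The authors corrected background and normalized with limma, and their deposited table holds log2 values whose decimal point is lost; once restored, these equalled log2 of the normexp-corrected median signal (offset 50) with no scaling between arrays. Here normexp (offset 50) was applied to mean and background signals of all spots, the 1377 control spots were dropped, log2 values were quantile normalized, outlier-flagged spots (429 to 820 per array of 3-44 and shRNA3T, up to 944 over all 16) were left out, and repeated spots of 1 probe were reduced to their mean. limma 3.58.1 in R 4.3.3 fitted 1 mean per group over all 16 arrays, and p-values were adjusted (Benjamini-Hochberg) over 30367 probes. No spot was saturated. Array data give no read depth, and the number of arrays limits precision. The fit was tested on simulated data.

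Members, gene lists and tests were chosen with earlier results of these data known; the families collected by name and the PPAR and complement lists were assembled after the values of this comparison had been seen. Named genes were Pdrg1, Mat1a and Mat2a, the 12 largest called differences in each direction with a symbol and a signal above background on all 8 arrays, called genes above background in 1 group alone (Fabp7), and up to 4 called members of each list, or the brightest where none was called; other genes were chosen after their values were seen. Members of lists were represented by their brightest probe. Gene names are those of the files: 18006 probes had an accession in RefSeq's gene table and 14580 of these kept their symbol. Promoter sequences are RefSeq's on GRCr8, 250 bases before the start. The alternatives were other background corrections and scalings, the deposited table, a filter on dim probes, outlier spots kept, the 8 arrays alone, a replicate block, array weights, an intensity trend, other fold limits and each array left out; leaving out the replicate 1 arrays together was added after seeing the data.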

Additional observations from a re-analysis of the deposited data

Results flagged for a closer look

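Of 154 sets of 4 arrays examined for the named genes, 11 held 1 array whose gap to its nearest neighbour took up nearly the whole range of the set, and chance alone marks about 1 set in 20. In 3-44, all 6 such sets were marked by the replicate 1 array and on the low side. Its log2 level was 11.89 for Pdrg1 (next array 12.86), 10.58 for Mat1a (11.87), 17.80 for Eno1 (18.15), 9.82 for Lbp (11.04), 16.39 for Phgdh (16.82) and 7.10 for Cyp2b2 (8.27). In shRNA3T, the replicate 1 array was low for Pdrg1 at 12.39 (next array 12.90) and for Krt18 at 16.47 (16.80), and high for Hist2h3c at 8.21 (7.87). Replicate 4 of shRNA3T was high for C5 at 11.50 (11.15) and replicate 2 was low for Ext1 at 11.52 (11.82). What sets the replicate 1 arrays apart was not tested.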

How the results depend on the processing

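Of 63 named genes that were called, 43 were called in the same direction under each of 30 alternatives, and 0 reversed under any of them. The number of called genes (580) was 1014 with 75th percentile scaling of the processed signal (419 higher, 595 lower) and 1021 with that signal quantile normalized (396 and 625); the cause was not tested. It was 340 with the deposited table unscaled (106 higher, 11 cell cycle members higher), 1809 at a fold limit of 1.5 (935 and 874) and 3093 with no fold limit (1526 and 1567), the last by construction. Leaving out 1 array gave 512 to 608 genes, 237 to 287 higher and 269 to 336 lower, with 14 to 20 cell cycle members higher. Without the replicate 1 arrays of both groups 496 genes were called, and 517 without those of every group. The median over all probes moved from 0.01 to 0.14 with 75th percentile scaling of the processed signal and to 0.16 with median scaling.

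The sign was not settled for genes near 0. With the processed signal, Pdrg1 was 0.021 after 75th percentile scaling and 0.017 after quantile normalization, where Col1a1 was 0.0095 and 0.041, Vwf -0.14 and -0.091, and Eno1 0.18 and 0.13. Vwf was -0.032 with the deposited table unscaled; with array weights Vwf was -0.0038, Eno1 0.064 and Gnas 0.028. Without the replicate 1 arrays, of both groups or of every group, Mat1a was 0.054, Mat2a -0.027, Vwf -0.0022, Eno1 0.084 and Gnas 0.0042. Leaving out 1 array gave -0.27 to 0.11 for Pdrg1, -0.46 to 0.054 for Mat1a, -0.011 to 0.22 for Vwf, -0.093 to 0.034 for Eno1 and -0.12 to 0.083 for Gnas.

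Same-numbered arrays of the 2 groups deviated from their group means with correlations of 0.31, 0.08, 0.16 and 0.30 across probes, and replicates 2 and 3 each correlated better with another number, so that the numbers were not taken as pairs. With a replicate block 601 genes were called, 262 higher and 339 lower, with 21 cell cycle members higher and Pdrg1 at -0.14.

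Genes dim in 1 group differed more with the processed signal, to which no offset was added: Hamp reached 5.17, Chdh -3.64, Tnfrsf9 -3.89, Prap1 -3.26, Cyp4a1 -2.54, Cyp3a9 -2.16 and Cd36 -1.71 (log2).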
